A study of Homo sapiens with 12 samples.

Results

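The 8 genes described here, SCD, ACSS2, ACSL1, SLC27A2, ELOVL3, ELOVL5, EHHADH and ETFB, activate, desaturate, elongate or oxidise fatty acids. They were followed in Huh7 cells, a human hepatoma line, in which A1CF, the RNA-binding partner of the apolipoprotein B mRNA editing enzyme, could be induced with doxycycline. The members were selected on their measured response to doxycycline, as rows named for one of them in either deposited table, so their responses are given as a description. Of the 1939 genes in either table they make up 8. The WT table held 3 of them (SCD, ACSS2 and ACSL1) and the G398S table held 7 (all but SCD), with ACSS2 and ACSL1 in both. SCD in the G398S clone, and ELOVL3, ELOVL5, SLC27A2, EHHADH and ETFB in the WT clone, were not analysed here.

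There were 4 groups of 3 libraries. The WT groups came from 1 clone with an inducible WT A1CF construct, without doxycycline or with it, and the G398S groups from 1 clone whose inducible construct carried the G398S form, again without or with the drug. All groups share the Huh7 background and an inducible construct, no group received doxycycline in the absence of a construct, and each form of A1CF is represented by a single clone. The labels do not record whether libraries within a group were grown apart, and if they were not, the authors' p-values cover technical spread only. The deposited value of a gene is 1 pooled FPKM (the authors' measure of RNA fragments, corrected for transcript length and library size) per group, so no value by library and no replicate SD can be given, and library depth is unknown. The standard error (SE) used below is the one implied by the authors' table, the log2 fold change divided by its test statistic. In bulk RNA, fewer cells expressing a gene and less RNA per cell cannot be told apart.

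Fatty acids enter metabolism only after activation to acyl-CoA, which acyl-CoA synthetases of the ACSL, ACSS and SLC27 families carry out. Acyl-CoA can then be desaturated by SCD, which places the first double bond in a saturated chain, or lengthened in the endoplasmic reticulum by an elongation cycle that an ELOVL enzyme starts. Chains are shortened by beta-oxidation in peroxisomes, where EHHADH acts, and in mitochondria, where electron transfer flavoprotein, of which ETFB is the beta subunit, takes electrons from the acyl-CoA dehydrogenases. In liver these steps feed triglyceride and phospholipid synthesis, lipoprotein secretion and ketone production.

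The induced gene responded in each clone. A1CF was at 19.5 FPKM without and 33.2 FPKM with doxycycline in the WT clone, and at 26.3 and 80.9 FPKM in the G398S clone. Of 16 hepatocyte marker genes, 6 were in the G398S table (TF, CEBPA, ASGR1, APOA1, APOA2 and TAT). All 6 were present in both groups and all 6 were lower with doxycycline, with a summed level of 1033 FPKM without and 716 FPKM with it. The intervals of TF and ASGR1 from the implied SE include 0. None of the 16 was in the WT table. For these and the markers below, the background is 10.9% of all genes tested in the G398S clone and 0.94% in the WT clone. Of the 1863 genes analysed in the G398S clone 1000 were lower, and the median log2 fold change was -0.32. Globin genes differed with doxycycline in both clones, in libraries made with a kit that depletes globin RNA, and the part of depletion was not tested. Of 16 erythroid markers, 3 were in the WT table with a summed level of 37206 FPKM without and 337 FPKM with doxycycline. There HBG1 and HBG2 fell, and HBA2 went from 1.15 to 9.67 FPKM, a log2 fold change of 3.08 with a wide SE of 2.15. The G398S table held 4 of the erythroid markers, all higher, with a summed level of 183 FPKM without and 4535 FPKM with doxycycline. Of 6 leukocyte, 6 fibroblast and 4 endothelial markers 1, 0 and 0 were in the WT table, and 1, 2 and 0 were in that of G398S. The leukocyte marker was LYZ in both, at 83.9 and then 39.4 FPKM with the drug in WT cells, and at 7.29 and then 3.87 FPKM in G398S cells. The part of these marker changes in the results below was not tested.

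The promoters of SCD and ACSS2, the genes that rose in the WT clone, and of ELOVL3 and SLC27A2, the genes of the 8 with the largest folds in the G398S clone, are shown for the genes on which these results turn. ACSS2 has a pair of RefSeq starts, and both are given. Each line gives the 250 bases before a RefSeq start on GRCh38.p14, 5′ to 3′ on the coding strand, with CCAAT, or its reverse complement ATTGG, in capitals. The files use hg19, and the match was by gene symbol only.

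SCD (plus strand, chr10:100346983-100347232): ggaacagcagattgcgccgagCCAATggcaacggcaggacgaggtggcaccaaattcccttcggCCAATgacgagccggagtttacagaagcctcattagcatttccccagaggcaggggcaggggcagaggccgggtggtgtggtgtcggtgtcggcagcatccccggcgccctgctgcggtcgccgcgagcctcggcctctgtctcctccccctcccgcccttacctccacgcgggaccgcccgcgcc
ACSS2, first listed start (plus strand, chr20:34874739-34874988): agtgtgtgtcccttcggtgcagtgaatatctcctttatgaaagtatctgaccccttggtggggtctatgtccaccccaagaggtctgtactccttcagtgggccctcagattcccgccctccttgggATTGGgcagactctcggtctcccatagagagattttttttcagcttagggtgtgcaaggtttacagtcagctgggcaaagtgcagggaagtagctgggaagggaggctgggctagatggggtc
ACSS2, other start (plus strand, chr20:34876362-34876611): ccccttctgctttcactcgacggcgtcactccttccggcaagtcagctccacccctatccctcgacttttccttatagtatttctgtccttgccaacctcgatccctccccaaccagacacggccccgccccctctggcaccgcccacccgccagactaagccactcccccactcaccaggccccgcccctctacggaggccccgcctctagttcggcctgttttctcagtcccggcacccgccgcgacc
ELOVL3 (plus strand, chr10:102226049-102226298): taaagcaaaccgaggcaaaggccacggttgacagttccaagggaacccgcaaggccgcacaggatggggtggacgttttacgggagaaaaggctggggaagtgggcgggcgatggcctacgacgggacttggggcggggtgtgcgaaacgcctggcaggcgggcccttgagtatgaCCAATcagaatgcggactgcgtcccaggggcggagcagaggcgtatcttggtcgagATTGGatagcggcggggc
SLC27A2 (plus strand, chr15:50181946-50182195): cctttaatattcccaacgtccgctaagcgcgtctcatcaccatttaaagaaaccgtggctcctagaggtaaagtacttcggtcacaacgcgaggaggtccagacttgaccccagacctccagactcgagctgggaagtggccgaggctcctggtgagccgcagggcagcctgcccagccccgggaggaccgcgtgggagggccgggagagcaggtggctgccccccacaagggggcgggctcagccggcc

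With the base before the start counted as -1, SCD carried CCAAT from positions -229 and -186 in the coding orientation. ELOVL3 carried it from -74 in that orientation and from -18 in reverse, and ACSS2 from -123 in reverse at its first listed start. The other ACSS2 window and that of SLC27A2 held none of the motifs searched. RefSeq gave 13 starts for 7 of the 8 genes, and 6 of these 13 upstream windows held CCAAT on either strand, 1 window each for SCD, ACSS2, ACSL1, ELOVL3, ELOVL5 and ETFB, against 32.0% of 35116 windows over all genes. The sterol element TCACNCCAC, 1 form of the sequences bound by the sterol-regulated SREBP factors, was found on either strand in 1 of the 13 windows. That window is at an internal start of ACSL1, against 0.883% of all windows. Only this form was searched, so a window without it, that of SCD included, may still hold another. The E-box CACGTG was found in 1 window, that of ELOVL5, against 6.34%, and the nuclear receptor hexamer AGGTCA in 0 windows against 12.1%. The CCAAT and sterol letters have no overlap in these windows. A match is only a match of letters, and which starts Huh7 cells use was not analysed here.

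SCD was the most abundant of the 3 genes in the WT clone and the one that responded most. It stood at 74.0 FPKM without doxycycline and 158 FPKM with it. The authors' deposited table lists a log2 fold change of 1.09 (SE 0.25, q = 0.00699), a 2.13-fold rise that ranked 7 among 56 rises in that clone. With doxycycline, 95.8% of the genes in the table had a lower FPKM than SCD, compared with 84.5% without it. The measured locus (hg19, chromosome 10, 102106772 to 102124588, plus strand) is 17817 bases long, exons and introns included, compared with 17711 bases for the gene in GENCODE and 17594 in RefSeq. It shares no exon with another gene in GENCODE, though a processed copy, SCDP1, lies on chromosome 17 and the handling of reads that match both is not stated.

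ACSS2, which makes acetyl-CoA from acetate in the cytosol and nucleus, had 12.0 FPKM without and 21.9 FPKM with doxycycline in the WT clone. The authors' deposited table lists a log2 fold change of 0.87 (SE 0.29, q = 0.00699), 1.83-fold, which ranked 12 of the 56 rises. ACSS2 lies on hg19 chromosome 20, 33462766 to 33515769, on the plus strand. The RNA level of SCD, per length, was 6.18 times that of ACSS2 without doxycycline and 7.21 times with it, so the ratio of these transcripts moved little.

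ACSL1, a major long-chain acyl-CoA synthetase of liver, moved the other way in the WT clone. It fell from 21.1 to 14.1 FPKM, to 0.667 of the uninduced level, and the authors' deposited table lists a log2 fold change of -0.58 (SE 0.27, q = 0.0127). The size of this fall ranked 83 of the 85 falls with a finite fold. ACSS2 was therefore at 0.566 of the ACSL1 level without doxycycline and at 1.55 times that level with it. Past a q of 0.01 ACSL1 was no longer called. ACSL1 lies on hg19 chromosome 4, 185676663 to 185747268 in this table, on the minus strand.

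These 3 genes, 2 higher and 1 lower, were read against the whole WT comparison. Of 15109 genes tested, 0.94% passed the authors' q of 0.05 and were analysed, and of the analysed genes 39.4% were higher with doxycycline. A log2 fold change of 1 or more in size was reached by 35.9% of the analysed genes and by 1 of the 3, SCD. The median log2 fold change was 0.87 over the 3 and -0.66 over all genes of the table. Because the genes were chosen from this contrast, nothing is read from these shares.

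**Figure D1:**
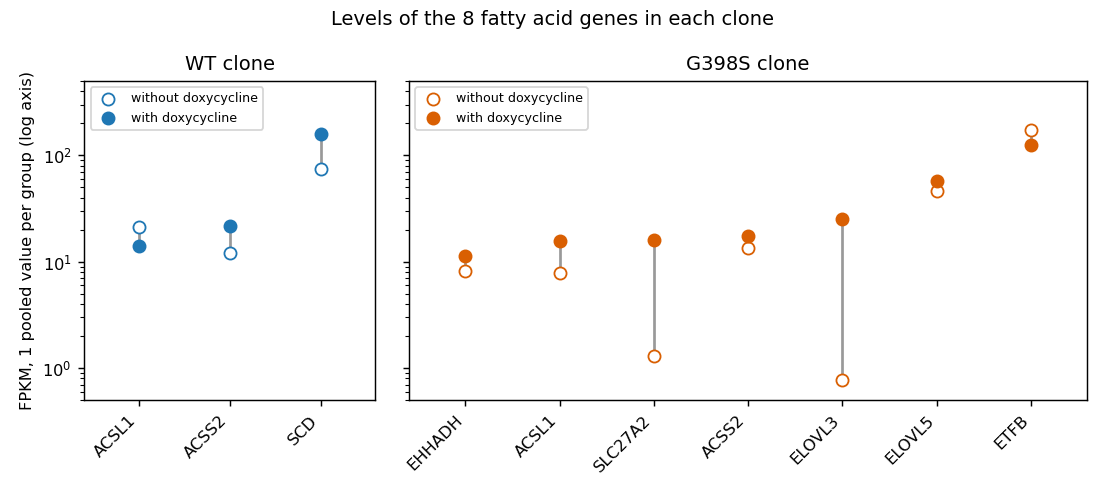
Pooled FPKM of each gene on a log axis, without (open) and with (filled) doxycycline, in the WT clone (left) and the G398S clone (right); each point is the authors' 1 value for a group, without error. ELOVL3 and SLC27A2 start near 1 FPKM and end at 25.4 and 16.1 FPKM, while the other genes shift by at most 2.13-fold.

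In the G398S clone 6 of the 7 genes rose and 1, ETFB, fell. The acyl-CoA synthetase SLC27A2 and the elongase ELOVL3 went from about 1 FPKM to levels near those of ACSL1 and ACSS2, whereas the other 5 changed by less than 2-fold. Of 17072 genes tested, 10.9% passed the authors' q of 0.05 and were analysed, and of these 46.3% were higher with doxycycline. A log2 fold change of 1 or more in size was reached by 12.6% of the analysed genes and by 2 of the 7. The median log2 fold change was 0.46 over the 7 genes and -0.32 over the table, again read only as a description.

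SLC27A2 (also called FATP2) takes up fatty acids and activates long and very long chains at the endoplasmic reticulum and peroxisome. It was at 1.29 FPKM without and 16.1 FPKM with doxycycline. The authors' deposited table lists a log2 fold change of 3.64 (SE 0.26, q = 0.00104), which ranked 11 of 863 rises. It was 2.8996 with 1 FPKM added to both groups. The locus is on hg19 chromosome 15, 50474393 to 50528614, plus strand.

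ACSL1 rose in this clone, from 7.90 to 15.7 FPKM, and the authors' deposited table lists a log2 fold change of 0.99 (SE 0.19, q = 0.00104). Without doxycycline the ACSL1 level was 6.11 times that of SLC27A2, and with it the levels were nearly equal, with SLC27A2 at 1.03 times ACSL1. ACSS2 rose less, from 13.5 to 17.5 FPKM, and the authors' deposited table lists a log2 fold change of 0.37 (SE 0.19, q = 0.00725). The interval from this SE, -0.0026 to 0.75, reaches 0 although the deposited q passed. ACSL5, a long-chain synthetase of mitochondria and endoplasmic reticulum, also rose, from 1.47 to 2.97 FPKM. Of the 25 genes on the activation list 4 were in the G398S table, all higher, and 3 of these are among the 8 chosen genes. They make up 16% of the list, tested or not, beside 10.9% of all genes tested. The 3 chosen genes count there by selection, so nothing is read from this share.

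ELOVL3 elongates saturated and monounsaturated very long chains and is known in mouse from skin, brown fat and liver. It stood at 0.766 FPKM without and 25.4 FPKM with doxycycline. The authors' deposited table lists a log2 fold change of 5.05 (SE 0.39, q = 0.00104), a 33.1-fold rise that ranked 4 of 863. Only 8.11% of the genes in the table had a lower FPKM without the drug, against 75.1% with it. The uninduced level was low, and adding 1 FPKM to both groups gave a log2 fold change of 3.90.

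ELOVL5, which elongates polyunsaturated chains, was far more abundant and changed little, from 45.8 to 57.0 FPKM. The authors' deposited table lists a log2 fold change of 0.31 (SE 0.19, q = 0.0397), ranking 823 of 863 rises. The interval from this SE, -0.06 to 0.69, includes 0, and ELOVL5 was no longer called past a q of 0.01. ELOVL5 exceeded ELOVL3 59.8-fold in level without doxycycline and 2.24-fold with it. ELOVL5 lies on hg19 chromosome 6, 53132169 to 53213977, minus strand.

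Other genes of the elongation list moved as well. ELOVL4, which makes the longest chains, rose from 0.749 to 2.92 FPKM and HACD1, a dehydratase of the elongation cycle, from 1.27 to 4.40 FPKM. The authors' deposited table lists log2 fold changes of 1.96 and 1.79. Both uninduced levels were low, and adding 1 FPKM to both groups gave 1.17 and 1.25. ELOVL2, another elongase of polyunsaturated chains, went from 35.3 to 27.9 FPKM, a log2 fold change of -0.34 (SE 0.18) whose interval includes 0. In all, 5 of 13 list genes were in the G398S table, 4 higher and 1 lower, and 2 of the 5 are among the 8 chosen genes. They make up 38.5% of the list, tested or not, beside 10.9% of all genes tested. The 2 chosen genes count there by selection, so nothing is read from this share. The summed level of the 4 elongases in the table (ELOVL2, ELOVL3, ELOVL4 and ELOVL5, a group put together after their values were seen) was 82.7 FPKM without and 113 FPKM with doxycycline, 1.37-fold higher, and ELOVL3 gained 24.6 FPKM.

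**Figure D2:**
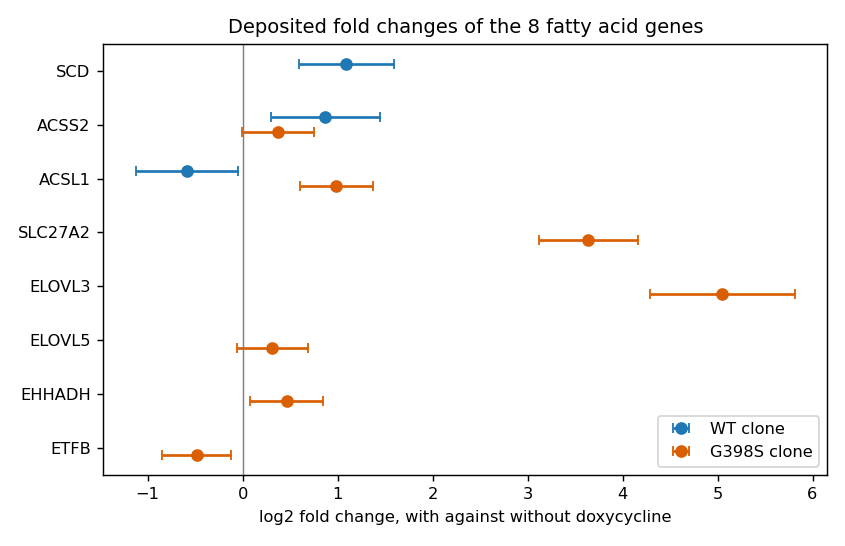
Log2 fold change with against without doxycycline from the authors' deposited tables, WT clone in blue and G398S clone in orange; bars are 95% intervals from the SE implied by the deposited test statistic. ELOVL3 at 5.05 and SLC27A2 at 3.64 stand far from 0, ACSL1 lies on either side of 0 in the clones, and the bars of ACSS2 and ELOVL5 in the G398S clone cross 0.

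EHHADH, the peroxisomal bifunctional enzyme that hydrates and then dehydrogenates enoyl-CoA, rose from 8.14 to 11.2 FPKM in the G398S clone. The authors' deposited table lists a log2 fold change of 0.46 (SE 0.20, q = 0.00104). The measured locus (hg19, chromosome 3, 184880689 to 185000665) is 119977 bases long, compared with 91367 bases in GENCODE and 63426 in RefSeq, and an antisense gene, EHHADH-AS1, overlaps an exon. Strand use in counting is not stated, so the value may hold reads of that transcript.

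The peroxisomal steps around EHHADH did not all move alike. Of 22 list genes 5 were in the G398S table, 3 higher and 2 lower. They make up 22.7% of the list, tested or not, beside 10.9% of all genes tested. EHHADH counts there by selection, so nothing is read from this share. HSD17B4, the other bifunctional enzyme, went from 108 to 132 FPKM (q = 0.0487), and PEX11A, which acts in peroxisome division, from 1.19 to 1.68 FPKM. The intervals of HSD17B4 and PEX11A from the implied SE include 0. ACAA1, the thiolase of the last step, fell from 58.7 to 43.2 FPKM, and ABCD2, a peroxisomal importer of very long acyl-CoA, from 1.08 to 0.432 FPKM.

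ETFB fell from 174 to 124 FPKM in the G398S clone, the single fall among the 7 genes whose level dropped by 49.4 FPKM. The authors' deposited table lists a log2 fold change of -0.48 (SE 0.19, q = 0.00104). ETFB lies on hg19 chromosome 19, 51848409 to 51869672, minus strand, where GENCODE (on GRCh38) lists an exon overlap with AC008750.4 on the opposite strand and AC008750.8 on the same strand, so reads could be shared. GCDH and SARDH, mitochondrial dehydrogenases that pass electrons to the same flavoprotein, also fell, GCDH to 12.3 FPKM from 15.6 and SARDH to 11.9 FPKM from 14.9. All 3 of the 7 genes on this list that were in the table, ETFB included, were lower. They make up 42.9% of the list, tested or not, beside 10.9% of all genes tested. ETFB counts there by selection, so nothing is read from this share. Their median log2 fold change was -0.34 beside -0.32 for the table.

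Mitochondrial beta-oxidation itself had 1 of 22 genes in the G398S table, 4.55% of the list, tested or not, beside 10.9% of all genes tested. SLC25A20, the carnitine-acylcarnitine carrier, rose from 31.4 to 39.2 FPKM. Desaturation had 2 of 10 genes, both higher. They make up 20% of the list, tested or not, beside 10.9% of all genes tested. CYB5A, the cytochrome that supplies desaturases with electrons, rose from 70.8 to 116 FPKM and FADS3 went from 12.7 to 16.5 FPKM. The intervals of SLC25A20 and FADS3 from the implied SE include 0.

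The remaining lists had few genes in the G398S table. The shares, tested or not, were 7.69% for synthesis, 8.33% for thioesterases, 6.25% for uptake and binding and 21.1% for regulators. Of all genes tested the share was 10.9%. MID1IP1, which promotes the activity of acetyl-CoA carboxylase, was the 1 of 13 synthesis genes and fell from 47.0 to 32.0 FPKM. ACOT9, a mitochondrial thioesterase, was the 1 of 12 thioesterases and fell from 30.3 to 22.2 FPKM. FABP1, the fatty acid binding protein of liver, was the 1 of 16 uptake and binding genes and fell from 76.2 to 49.1 FPKM. Of 19 regulators 4 were present. PPARD, a nuclear receptor for fatty acids, went from 1.92 to 3.17 FPKM and NR1H2, an oxysterol receptor, from 7.82 to 5.86 FPKM. The intervals of PPARD and NR1H2 from the implied SE include 0. PPARGC1A was higher and CREB3L3 lower, at levels under 1 FPKM.

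In all, 20 of the 151 pathway genes other than the 8 (13.2%, beside 10.9% of all genes tested) were in the G398S table, 10 higher and 10 lower, with a median log2 fold change of -0.02. The list share counts every list gene, tested or not, so the bases of these shares differ. The WT table held 1 of the 151, 0.66%, beside 0.94% of all genes tested in that clone. It was INSIG1, the sterol-regulated anchor of the SREBP system, which rose from 27.2 to 57.8 FPKM. The 131 and 150 genes outside the tables were not analysed here.

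**Figure D3:**
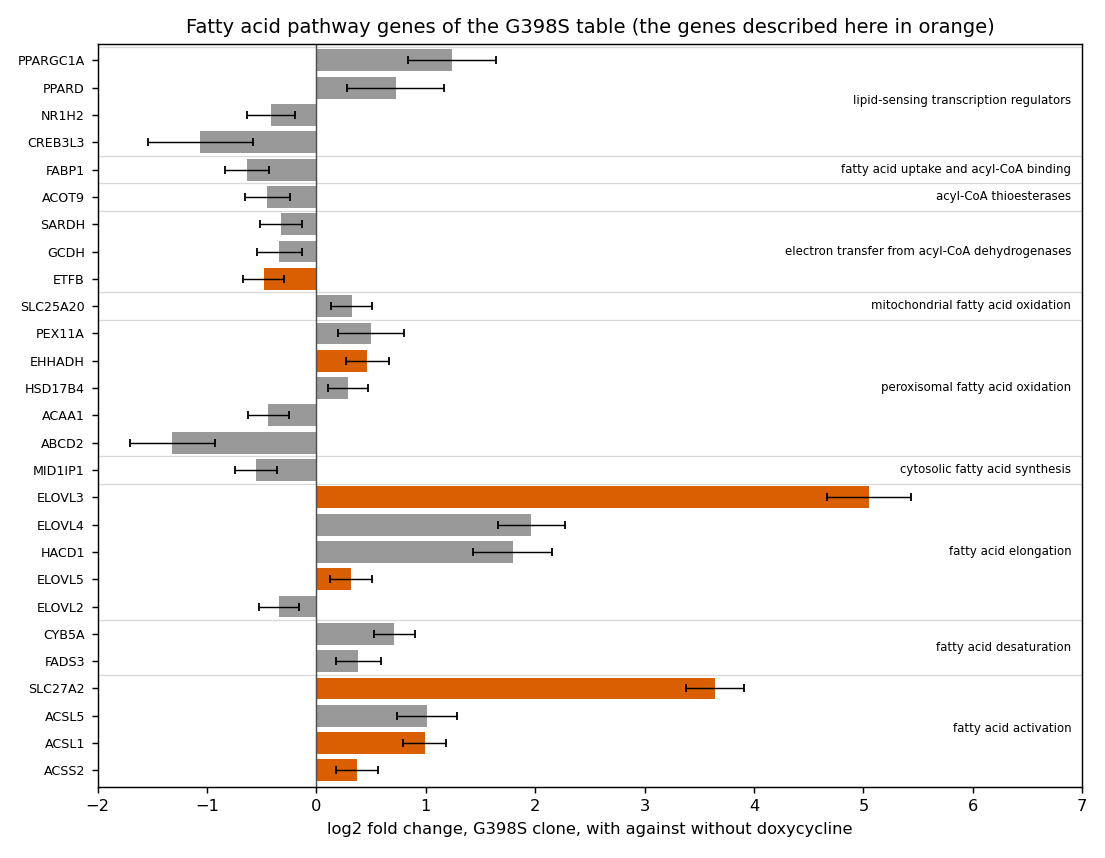
Log2 fold change in the G398S clone of every gene of the 10 pathway lists that was in the table, grouped by list; orange bars are the genes described here, grey bars the other list genes, and whiskers are 1 implied SE. All 4 activation genes, 3 of them genes described here, lie to the right of 0. All 3 electron transfer genes lie to the left, and the elongation and peroxisomal lists have bars on both sides.

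ACSL1 and ACSS2 could be set beside each other in both clones. Whether the clones were normalised together is not stated, so a level set across clones is a description. A1CF itself rose 1.70-fold in the WT clone and 3.08-fold in the G398S clone. The form of A1CF, its amount and the clone therefore cannot be told apart. ACSL1 was 2.68 times higher in the WT clone than in the G398S clone without doxycycline (21.1 against 7.90 FPKM). With doxycycline the clones were close, at 14.1 FPKM in WT and 15.7 FPKM in G398S, a G398S level 1.11 times that of WT. On the log2 scale the ratio of G398S to WT was -1.42 without and 0.15 with the drug. Over the 65 genes in both tables the uninduced ratio had a median of -0.64 and quartiles of -1.71 and -0.04, so that of ACSL1 lay inside the middle range, and 35 of the 65 genes were closer between clones with doxycycline than without it.

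The ACSL1 log2 fold change was higher in G398S than in WT by 1.57 (95% interval 0.92 to 2.23 from the SE implied by the test statistic, and 1.01 to 2.13 from the SE implied by the p-value). ACSL1 was chosen for this pattern, so the difference is a description and no test is attached. It ranked 14 of the 65 genes for the size of a difference in this direction. Opposite signs in the clones were seen for 19 of the 65, of which 15 fell in WT and rose in G398S as ACSL1 did. Another 22 genes rose in both clones and 24 fell in both.

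ACSS2 rose in both clones. Its log2 fold change was lower in G398S by a difference of -0.50, with an interval of -1.18 to 0.19 from the test statistic and -0.97 to -0.03 from the p-value. The error estimates thus disagree on whether 0 is inside the interval. The G398S level was 1.13 times the WT level without doxycycline and 0.8005 of it with doxycycline.

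The genes most like ACSL1 in the pair of log2 fold changes (smallest Euclidean distance over the 2 comparisons, of the other genes in both tables) were MAP3K8, a kinase of inflammatory signalling, TNFAIP3, an inhibitor of NF-kappaB, and GXYLT2, a xylosyltransferase, at distances of 0.36, 0.41 and 0.52. MAP3K8 had 5.76 and 3.13 FPKM without and with doxycycline in WT, and 2.79 and 4.82 FPKM in G398S. Those most like ACSS2 were SLCO4C1, an organic anion transporter, RAB14, a GTPase of membrane traffic, and UAP1L1, at 0.10, 0.12 and 0.12. SLCO4C1 had 3.37 and 5.78 FPKM in WT, and 3.57 and 4.63 FPKM in G398S. In the G398S clone the intervals of GXYLT2, SLCO4C1 and UAP1L1 from the implied SE include 0.

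**Figure D4:**
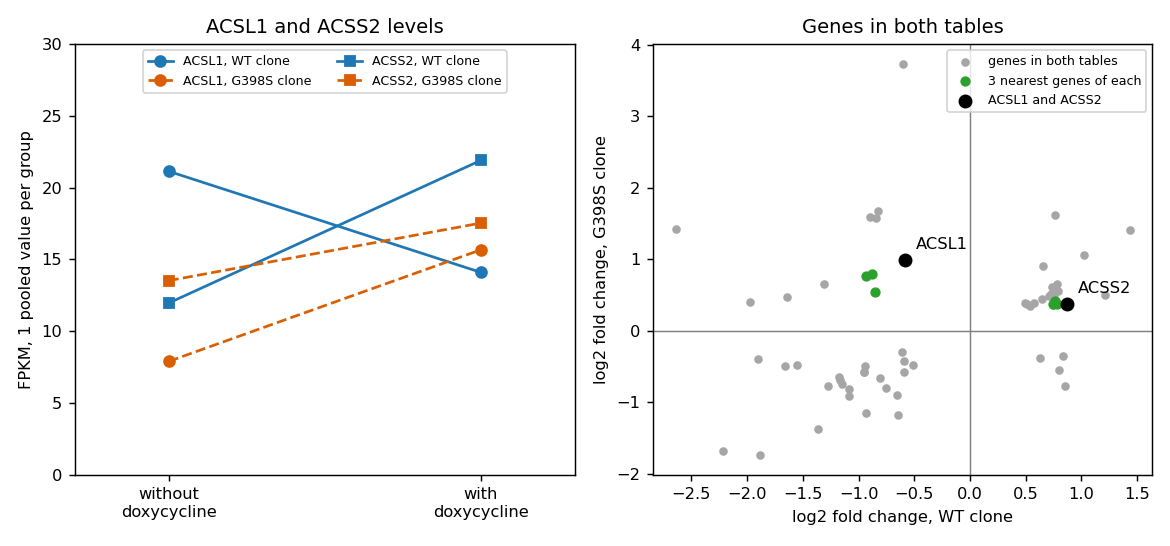
Left, pooled FPKM of ACSL1 (circles) and ACSS2 (squares) without and with doxycycline, WT clone in solid blue and G398S clone in dashed orange. Right, log2 fold changes in the WT clone against those in the G398S clone for genes in both tables, leaving 4 of the 65 outside the axis, with ACSL1 in the upper left quadrant and ACSS2 in the upper right.

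SCD and ELOVL3 lie on the same arm of chromosome 10, with 1.86 megabases of hg19 sequence between the end of SCD and the start of ELOVL3 (103986035 to 103989344). The WT table had 0 genes between them and the G398S table had 2. OLMALINC, a long noncoding RNA gene next to SCD (102133264 to 102148112), went from 2.18 to 3.65 FPKM and NPM3, a nucleoplasmin family gene, from 42.6 to 28.9 FPKM. OLMALINC, like ELOVL3, was higher with doxycycline, and NPM3 was lower. The OLMALINC interval from the implied SE includes 0.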

How the data were processed

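RNA from 12 libraries in 4 groups of 3 was made with a stranded total RNA kit that depletes ribosomal and globin RNA, per the labels. Per the submitters' processing notes, the build was hg19 and the tools included STAR 2.5.0b, Cufflinks 2.2.1 and Cuffdiff. Tool settings, strand use included, were not given in the sources used. Of 2 deposited tables, laid out as Cuffdiff gene tables of genes the authors marked significant, 1 carries a mutant label and the other was taken as WT from its deposited name. Per the file headers, the authors gave 1 FPKM value per group, a log2 fold change with no pseudocount, a test statistic (a score), and p-values and q-values. Library depth is unknown, and no count or replicate spread could be had.

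The number of genes tested was recovered as the smallest for which every rank, p times number over q, was whole within the 6 digits of q, and the procedure was tested on simulated data (2 of 2 simulations recovered). Ranks imply 172 WT and 2114 G398S genes past a q of 0.05, of which 30 and 251 were not analysed here. Implied SE were the log2 fold change over the test statistic or over the normal quantile of p, and intervals are at 95%. The smallest deposited p was 5e-05, so an SE from such a p is an upper limit. A value of 1 was added to starts. Computation used Python 3.11.15, pandas 2.3.3, numpy 2.4.6 and scipy 1.17.1. RefSeq sequences were matched by symbol. The 8 genes and the 10 pathway lists (159 genes) were chosen with earlier results of these data known. Named with values were the 8 genes, up to 4 genes per list and table with the largest fold and at least 1 FPKM in the higher group, A1CF, the 3 nearest genes of ACSL1 and ACSS2, and genes between SCD and ELOVL3. Values of HSD17B4, HBA2 and LYZ fall outside this rule and were chosen after they were seen. Alternatives were added pseudocounts of 1 and 0.1 FPKM, a minimum of 1 FPKM, a q of 0.01 and a log2 fold change of at least 1. Protein features were not used here, and some genes are not reported here.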

Additional observations from a re-analysis of the deposited data

How the results depend on the processing

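Adding 0.1 or 1 FPKM to both groups cannot reverse a direction, so the directions of the 8 genes were not tested by it. Adding 1 FPKM moved the log2 fold changes of ELOVL3 and SLC27A2 by more than their implied SE, to 3.90 and 2.8996. At a q of 0.01 the WT count of genes lower went from 1 to 0, both among the 8 genes and in the pathway lists, because ACSL1 has q = 0.0127. ELOVL5 in the G398S clone was lost as well. The G398S pathway lists had 16 genes higher and 11 lower, and 10 and 7 at a q of 0.01. At a log2 fold change of 1 or more in size they had 6 and 2, and the WT lists had 0 genes lower. These settings keep fewer genes by construction. No paired analysis was possible because the tables hold 1 pooled value per group, which also prevents leaving out a library. Library depth is unknown, and folds of genes near or under 1 FPKM depend on the pseudocount.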
